A study of Homo sapiens with 6 samples.

Results

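TRMT112 and the 7 methyltransferases that it activates were examined by RNA-Seq in A549 cells, a human lung carcinoma line, after knock-down of 1 of them, KMT9α. The 8 genes, N6AMT1, TRMT112, WBSCR22, ALKBH8, TRMT11, METTL5, THUMPD3 and THUMPD2, were listed as members of this family by a rule without a threshold on a measured value, at a time when earlier results of these data were known. They are 8 of 23180 gene symbols of the deposited table and hold 14 of its 37585 transcripts. For each gene, the transcript with most counts in the 6 libraries together stands for it. All 8 were among the 13877 genes with enough counts to be tested. The 6 libraries of total RNA came from unmodified (WT) A549 cells at passage 11, 3 transfected with siControl, a non-targeting siRNA, and 3 with an siRNA against KMT9α. The study's methods give siKMT9α#1 at 65 nM and 3 days, while the labels name the target without the siRNA's number. The RNA thus comes from 1 cell line and, as far as the sources state, from 1 siRNA sequence against the target.

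TRMT112 is a small zinc-binding protein without catalytic activity of its own that binds class I methyltransferases and keeps them stable and active. The enzymes compete for it, and most of them act on the translation machinery. With the product of N6AMT1 it forms KMT9, in which N6AMT1 is KMT9α and TRMT112 is KMT9β, an enzyme that monomethylates a lysine of histone H4, and the same pair methylates a glutamine of the release factor eRF1. WBSCR22, now named BUD23, methylates a guanosine of the small ribosomal subunit's RNA, and METTL5 methylates an adenosine of the same RNA. ALKBH8 completes a modification of the wobble uridine of certain tRNAs, TRMT11 and THUMPD3 methylate guanosines of tRNAs, and THUMPD2 methylates a guanosine of a spliceosomal snRNA.

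The sequences upstream of the 4 members that fell (N6AMT1, TRMT112, WBSCR22 and METTL5) and of ALKBH8, the member that rose most, are shown because these 5 moved in common or opposite directions after the same knock-down. Of these, N6AMT1 is the target of the siRNA itself. Each is the 250 bases before the start in RefSeq's promoter windows (GRCh38.p14), 5′ to 3′ on the gene's own strand. They lie at chr21:28885368-28885617 (minus strand) for N6AMT1, chr11:64317560-64317809 (minus) for TRMT112, chr7:73683347-73683596 (plus) for WBSCR22, chr2:169824906-169825155 (minus) for METTL5 and chr11:107565736-107565985 (minus) for ALKBH8. Capitals mark matches, on either strand, to 8 short motifs: ETS (CCGGAAG), E-box (CACGTG), CRE (TGACGTCA), NRF1 (GCGCATGC), CCAAT box (CCAAT), GC box (GGGCGG), YY1 (AAGATGGC) and E2F (GCGGGAA).
N6AMT1: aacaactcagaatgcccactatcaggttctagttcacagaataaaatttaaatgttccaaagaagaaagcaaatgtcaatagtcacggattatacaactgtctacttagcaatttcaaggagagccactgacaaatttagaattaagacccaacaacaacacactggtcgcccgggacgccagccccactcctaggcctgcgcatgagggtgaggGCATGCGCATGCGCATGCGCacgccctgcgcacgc
TRMT112: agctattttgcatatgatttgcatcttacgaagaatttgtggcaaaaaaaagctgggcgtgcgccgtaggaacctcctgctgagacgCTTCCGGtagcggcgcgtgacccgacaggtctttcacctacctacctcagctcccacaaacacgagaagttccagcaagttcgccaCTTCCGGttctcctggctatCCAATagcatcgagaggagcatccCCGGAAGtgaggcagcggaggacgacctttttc
WBSCR22: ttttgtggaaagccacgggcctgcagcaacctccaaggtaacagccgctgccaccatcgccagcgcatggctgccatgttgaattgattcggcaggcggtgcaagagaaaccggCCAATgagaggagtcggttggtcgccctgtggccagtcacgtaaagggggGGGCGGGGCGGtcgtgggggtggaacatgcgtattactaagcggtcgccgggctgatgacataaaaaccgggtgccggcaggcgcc
METTL5: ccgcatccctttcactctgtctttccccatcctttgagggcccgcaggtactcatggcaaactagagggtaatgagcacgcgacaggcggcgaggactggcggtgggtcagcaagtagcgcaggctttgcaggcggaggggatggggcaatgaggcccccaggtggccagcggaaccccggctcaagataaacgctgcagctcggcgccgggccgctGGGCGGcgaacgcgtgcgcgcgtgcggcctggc
ALKBH8: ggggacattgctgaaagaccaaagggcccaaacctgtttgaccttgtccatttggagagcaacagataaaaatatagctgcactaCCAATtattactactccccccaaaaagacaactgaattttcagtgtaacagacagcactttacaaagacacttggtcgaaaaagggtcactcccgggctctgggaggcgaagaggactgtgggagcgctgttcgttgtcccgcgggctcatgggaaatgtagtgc

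None of the 8 motifs matched upstream of all 4 genes that fell, a set that includes N6AMT1, the target of the siRNA. Among the untargeted genes that fell, the GC box matched WBSCR22 and METTL5, and TRMT112 only in its second RefSeq window. The window of N6AMT1 held 5 overlapping matches to the NRF1 motif in 1 stretch, a motif with at least 1 match in 2.63% of the 35116 RefSeq windows of this length. That of TRMT112 held 3 ETS matches (8.52% of all windows held at least 1) and 1 CCAAT box (32% of all windows). That of WBSCR22 held 1 CCAAT box and 2 adjoining GC boxes (42.6% of all windows), and that of METTL5 held 1 GC box. ALKBH8, which rose, had only a CCAAT box among the 8 motifs. RefSeq has a second window for TRMT112, 429 bases upstream of the deposited start, with 1 ETS match and 2 GC boxes. THUMPD3 had 1 NRF1 match and TRMT11 had 1 ETS match. The windows of 7 of the 8 members were found, and THUMPD2 was not matched. A match is a description of letters and not a bound factor, and no binding was measured.

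In control cells the 8 genes differed widely in level. As CPM per kb of transcript (counts scaled to the library total with TMM factors and divided by transcript length), TRMT112 was highest with 302.9 ± 20.03 (SD, n = 3). The ribosomal RNA enzymes followed, WBSCR22 with 127.9 ± 2.06 and METTL5 with 86.7 ± 2.92 (SD, n = 3). TRMT11 with 20.8 ± 1.27 and THUMPD3 with 19.7 ± 0.280 came next, and their libraries overlapped, so that the order of these neighbours is not given by the data. THUMPD2 had 12.9 ± 0.735, ALKBH8 4.42 ± 0.351 and N6AMT1 2.23 ± 0.128 CPM per kb (SD, n = 3). N6AMT1 thus had the lowest level of the 8 genes before any knock-down, at 0.738% ± 0.0299 (SD, n = 3) of the level of TRMT112 in the same libraries. With siKMT9α#1 the order of the 8 genes by CPM per kb was the same and no neighbours overlapped. This order and the percentage of TRMT112 depend on the division by length. As CPM, WBSCR22 (180.6 ± 2.91) and TRMT112 (173.8 ± 11.5) overlapped in the siControl libraries (SD, n = 3). THUMPD3 (77.9 ± 1.11) lay above TRMT11 (40.1 ± 2.44) in these libraries. N6AMT1 was the lowest by CPM too, with 10.8 ± 0.621 (SD, n = 3).

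**Figure D1:**
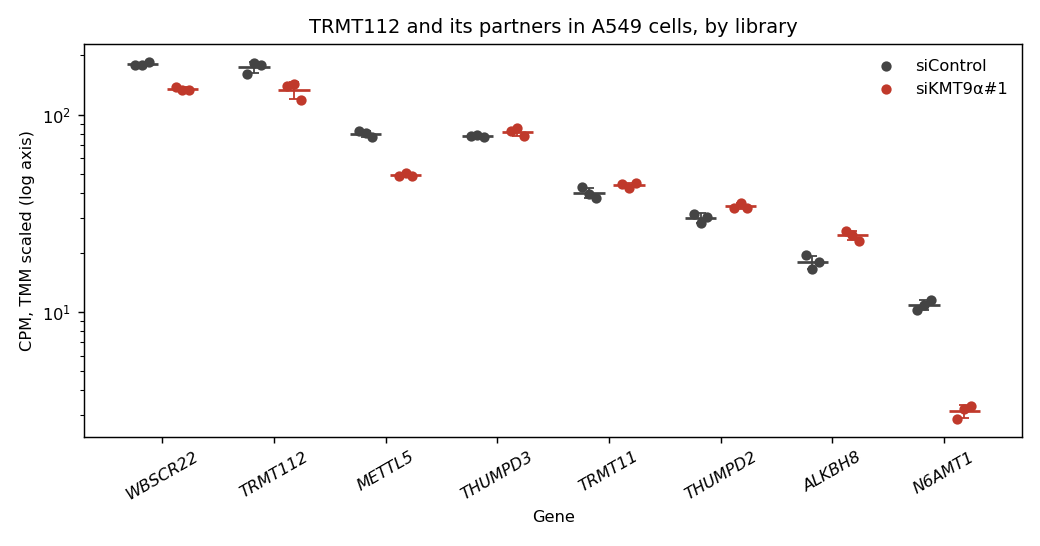
CPM (counts scaled to the library total with TMM factors, log axis) of TRMT112 and its 7 partners in each of the 3 siControl (grey) and 3 siKMT9α#1 (red) libraries, with the mean (horizontal line) and SD (error bar). N6AMT1, TRMT112, WBSCR22 and METTL5 are lower in every siKMT9α#1 library than in any siControl library, ALKBH8 and THUMPD2 are higher, and the groups of TRMT11 and THUMPD3 overlap.

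Did the knock-down of KMT9α change the RNA of the shared subunit and of the other enzymes? N6AMT1, TRMT112, WBSCR22 and METTL5 fell, ALKBH8 and THUMPD2 rose, and TRMT11 and THUMPD3 did not pass the test. In these bulk samples, fewer cells of a state and less RNA per cell cannot be told apart. In all, 6 of 8 genes passed an adjusted p of 0.05 in edgeR's quasi-likelihood test, where 75.6% of all genes tested did. The 2 that rose compare with 37.1% of all genes higher, and the 4 that fell with 38.5% lower. The share lower differed with transcript length. It was 29.6% up to 600 bases (the class of TRMT112), 54% from 600 to 1000 (METTL5), 49.2% from 1000 to 1500 (WBSCR22) and 27.9% over 4000 (N6AMT1). The groups of 6 of the 8 genes (75%) did not overlap, against 77.0% of all genes tested. The count of members called was therefore close to that of genes at large, and the description below rests on the direction and size of each. At the study's stricter threshold of P below 1e-08 with an absolute log2 fold change above 0.26, which 13.5% of all genes passed as higher and 10.7% as lower, 0 members rose and 2, N6AMT1 and METTL5, fell. Over the alternatives 1 to 4 members passed it, none of them higher. WBSCR22 passed with the likelihood-ratio test, the exact test, DESeq2, the library size alone, upper quartile factors, no filter on low counts and every transcript. TRMT112 passed only without the filter, and METTL5 missed it with length offsets alone. The median log2 fold change of the 8 genes was -0.15, beside -0.01 for all genes tested.

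N6AMT1, the target of the siRNA, had 10.2, 10.8 and 11.5 CPM in the siControl libraries and 2.87, 3.22 and 3.35 CPM in the siKMT9α#1 libraries. The groups did not overlap, and 29.0% of the control level remained. These values rest on 175.5 to 220.5 estimated counts per siControl library and 38 to 64 per siKMT9α#1 library. The log2 fold change was -1.77 (SE 0.12, 95% interval -2.03 to -1.51, adjusted p = 1.43e-10 by edgeR's quasi-likelihood test). It lay at the percentile of 3.04 among the log2 fold changes of all genes tested, so that a small share of untargeted genes fell further than the target. The span of N6AMT1 runs from 30244513 to 30257693 on chromosome 21 (hg19, minus strand, transcript NM_013240, 6 annotated exons). Its second deposited transcript, NM_182749, had a log2 fold change of -1.71, against -1.77 for NM_013240 in the same fit over all transcripts.

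TRMT112, the shared subunit and KMT9β, had 160.7, 182.1 and 178.7 CPM with siControl and 140.3, 142.5 and 118.3 CPM with siKMT9α#1. All 3 knock-down libraries lay below all 3 controls, with the third knock-down library lowest. The mean was 173.8 ± 11.5 and 133.7 ± 13.4 CPM (SD, n = 3), a remainder of 76.9%. The log2 fold change was -0.38 (SE 0.07, 95% interval -0.52 to -0.25, adjusted p = 2.93e-05 by edgeR's quasi-likelihood test), and its percentile among all genes was 29.7. Without the third knock-down library the fall by 0.38 on the log2 scale became -0.29, and with offsets that correct each library for transcript length and GC content it was -0.23 (adjusted p = 1.26e-04 by the same test). TRMT112 has the shortest transcript of the 8, 574 bases in 4 exons (NM_016404, chromosome 11 from 64084165 to 64085033, hg19, minus strand). The 257 genes tested with transcripts of up to 600 bases had a median log2 fold change of 0.13, while the 672 genes of 600 to 1000 bases had -0.25. The part of transcript length in the result beyond the offsets was not tested.

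The end of TRMT112 overlaps ESRRA, an orphan nuclear receptor gene on the opposite strand, over 44 exonic bases, 7.67% of the transcript, and none of them in the coding part of TRMT112. Whether the counting used the strand is not stated in the sources used here. ESRRA had 94.7 ± 5.30 CPM with siControl and 90.6 ± 7.02 with siKMT9α#1 (SD, n = 3), a log2 fold change of -0.07 that did not pass (adjusted p = 0.315 by edgeR's quasi-likelihood test). The annotation also lists 7 pseudogenes of TRMT112, none of which is in the deposited table, so that reads shared with them could not be told apart.

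Both partners that modify the small ribosomal subunit's RNA fell. WBSCR22 had 179.6, 178.4 and 183.9 CPM with siControl and 138.0, 132.8 and 133.3 CPM with siKMT9α#1. Its libraries were close to each other within each group and far apart between groups, and 74.6% remained. The log2 fold change was -0.42 (SE 0.05, adjusted p = 8.37e-08 by edgeR's quasi-likelihood test). Its unadjusted p of 2.19e-08 by this test lay just outside the study's threshold. WBSCR22 passed that threshold with the likelihood-ratio test, the exact test and DESeq2. The row that represents it, NR_037776 (1412 bases, chromosome 7 from 73097898 to 73112551, hg19, plus strand), is a non-coding transcript of the gene. The 4 transcripts of WBSCR22 share most reads and gave log2 fold changes of -0.43 to -0.42. With GC and length offsets the value was -0.25, and over all alternatives it ran from -0.53 to -0.19.

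METTL5 had 82.7, 80.6 and 77.3 CPM with siControl and 48.7, 50.7 and 49.0 CPM with siKMT9α#1. The gap between the groups was many times their spread, and 61.7% of the control level remained, the largest fall among the members apart from the targeted gene. The log2 fold change was -0.70 (SE 0.05, 95% interval -0.81 to -0.59, adjusted p = 4.43e-10 by edgeR's quasi-likelihood test). It was -0.41 with GC and length offsets, still past the threshold. METTL5 (NM_014168, 925 bases, 8 annotated exons) lies on chromosome 2 from 170668268 to 170681353 (hg19, minus strand), and 102 of its exonic bases, 11.03%, overlap SSB, which encodes the La protein, on the opposite strand, 39 of them in the coding part of METTL5. Of the 4 annotated pseudogenes of METTL5 none is in the deposited table, nor is the 1 of THUMPD3. SSB fell too, from 238.4 ± 4.74 to 199.5 ± 4.30 CPM (SD, n = 3), with a log2 fold change of -0.26 (adjusted p = 4.39e-05 by the same test). The part of the overlapping bases in the value of METTL5 was not tested.

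ALKBH8, the wobble uridine enzyme, moved the other way. It had 19.3, 16.5 and 17.8 CPM with siControl and 25.7, 24.7 and 22.96 CPM with siKMT9α#1. The groups did not overlap, and the level with the knock-down was 136.6% of the control. The log2 fold change was 0.44 (SE 0.08, 95% interval 0.28 to 0.61, adjusted p = 5.3e-05 by edgeR's quasi-likelihood test), and it stayed between 0.34 and 0.52 in all 20 alternatives, each past the threshold. ALKBH8 (NM_138775, 4044 bases) lies on chromosome 11 from 107373453 to 107436461 (hg19, minus strand). The 4376 genes with transcripts over 4000 bases had a median log2 fold change of 0.17.

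The 3 enzymes with a THUMP domain, an RNA-binding module, had log2 fold changes of at most 0.19 with TMM scaling, while with GC and length offsets those of TRMT11 and THUMPD2 were 0.34 each, larger in size than that of TRMT112. On hg19 THUMPD2 lies on chromosome 2 from 39963200 to 40006416 (NR_028102, minus strand), TRMT11 on chromosome 6 from 126307576 to 126360420 (NM_001031712, plus) and THUMPD3 on chromosome 3 from 9404717 to 9428475 (NM_015453, plus). THUMPD2, the snRNA enzyme, had 31.5, 28.2 and 30.4 CPM with siControl and 33.6, 35.8 and 33.7 CPM with siKMT9α#1. It rose without overlap of the groups, with a log2 fold change of 0.19 (SE 0.07, 95% interval 0.05 to 0.33, adjusted p = 0.014 by edgeR's quasi-likelihood test). This call was lost without the second siControl library (0.15, adjusted p = 0.0656) or the second siKMT9α#1 library (0.16, adjusted p = 0.0614), and with the library size alone (0.08, adjusted p = 0.249) or upper quartile factors (0.13, adjusted p = 0.0849), and its value was 0.34 (adjusted p = 1.27e-05) with GC and length offsets. TRMT11 had 42.7, 39.5 and 38.0 CPM with siControl and 44.4, 42.6 and 44.8 CPM with siKMT9α#1. The highest control library lay just above the lowest knock-down library, and the log2 fold change of 0.14 (SE 0.06) did not pass (adjusted p = 0.0527 by edgeR's quasi-likelihood test). TRMT11 passed without the first siControl library (0.20, adjusted p = 0.00731) and with GC and length offsets (0.34, adjusted p = 2.19e-06). THUMPD3 had 77.9, 79.0 and 76.8 CPM with siControl and 82.4, 85.6 and 77.9 CPM with siKMT9α#1. Its log2 fold change was 0.07 with TMM scaling (95% interval -0.04 to 0.18, adjusted p = 0.209 by the same test) and -0.03 with the library size alone, so that neither a change nor a direction was shown.

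**Figure D2:**
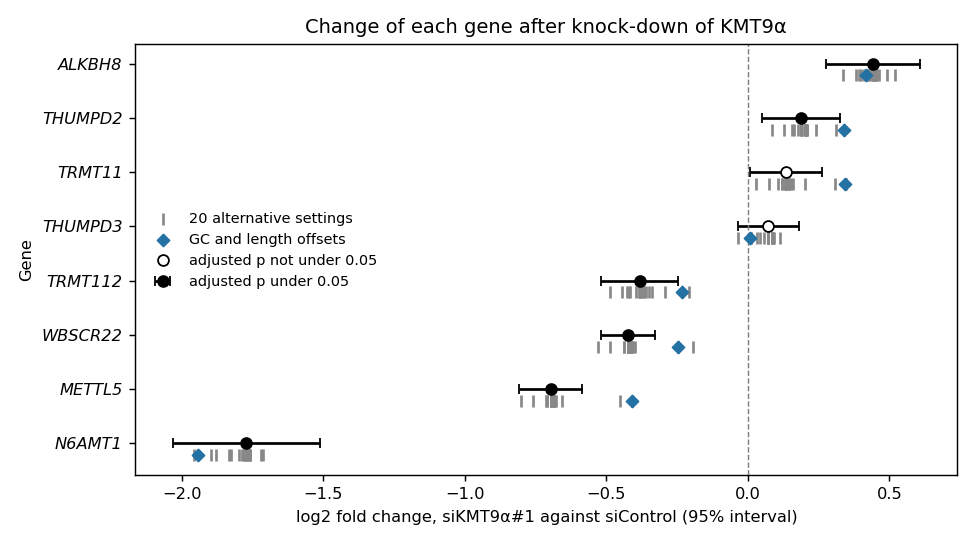
Log2 fold change of each gene, siKMT9α#1 against siControl (3 libraries each), with its 95% interval (filled points passed an adjusted p of 0.05, open points did not), and below it the values in 20 alternative settings (grey ticks), among them GC and length offsets (blue). N6AMT1 lies at -1.77 and ALKBH8 at 0.44, METTL5, WBSCR22 and TRMT112 lie below 0 in every setting, and THUMPD3 lies on both sides of 0.

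Fitted over every transcript of the table, 12 of the 14 transcripts of the 8 genes passed an adjusted p of 0.05, where 76.3% of the 24770 transcripts tested did. Both transcripts of THUMPD3 missed it, with log2 fold changes of 0.07 and 0.09. Both transcripts of THUMPD2 had 0.19. TRMT11 passed in this fit (0.14, adjusted p = 0.0491 by edgeR's quasi-likelihood test). Transcripts of 1 gene share most of their reads and are not independent.

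The RNA level of the shared subunit was then set against that of the enzymes it serves, within each library. Amounts of protein or of complexes were not examined, and the study's proteome data of this knock-down were not used here. The level of TRMT112 divided by the summed level of its 7 partners, all as CPM per kb, was 1.00, 1.16 and 1.14 with siControl and 1.13, 1.16 and 0.976 with siKMT9α#1. The groups overlapped. The height of this ratio depends on the length correction: it was 1.43 in both groups with 200 bases taken off each length, and 0.398 and 0.359 with counts not divided by length (log2 difference -0.15, exact permutation p = 0.3). The means were 1.10 ± 0.0869 and 1.09 ± 0.0981 (SD, n = 3), and the log2 difference of -0.02 had p = 0.6 by exact permutation (two-sided, where 3 against 3 libraries cannot go below 0.1). Leaving out 1 library moved the difference between -0.09 and 0.06. The partners' sum fell from 274.7 ± 3.66 to 213.9 ± 2.33 CPM per kb (SD, n = 3, log2 difference -0.36), with no overlap and the smallest p that the exact test allows, 0.1. The sum is made mostly of WBSCR22 and METTL5. Without METTL5 the log2 difference in the ratio was -0.15 (exact permutation p = 0.3), and without WBSCR22 it was -0.07 (exact permutation p = 0.5).

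The make-up of the partner pool, taken as RNA, differed between the groups. WBSCR22 and METTL5 together held 78.1% ± 0.421 of the pool with siControl and 69.6% ± 0.2602 with siKMT9α#1 (SD, n = 3). METTL5 went from 31.6% ± 0.799 to 25.01% ± 0.565 of the pool, and WBSCR22 from 46.6% ± 1.08 to 44.6% ± 0.774 (SD, n = 3). The tRNA and snRNA enzymes took larger shares. TRMT11 went from 7.57% to 10.7%, THUMPD3 from 7.16% to 9.67%, THUMPD2 from 4.71% to 6.91% and ALKBH8 from 1.61% to 2.82%. N6AMT1 went from 0.814% to 0.303%. For none of the 7 partners, among them the target N6AMT1, did the shares of the groups overlap. Each had an exact permutation p of 0.1, the smallest that 3 against 3 libraries can give, also after adjustment over the 7. As CPM, the groups of 77% of all genes tested did not overlap either. The shares add to 100%, so that a fall in the largest raises the others. They rest on levels without offsets for transcript length and GC content. Genes tested of 600 to 1000 bases, the class of METTL5, had a median log2 fold change of -0.25. Those of 1000 to 1500 bases, the class of WBSCR22, had -0.21, and those over 4000 bases, the class of ALKBH8 and N6AMT1, had 0.17. The part of transcript length in the shares was not tested. Set against TRMT112 in place of the pool, WBSCR22 was 42.4% ± 2.84 and 41.2% ± 4.10 of its level (SD, n = 3) with overlapping groups (exact permutation p = 0.8), while the other 6 partners did not overlap (exact permutation p = 0.1 each, 0.117 adjusted over the 7 partners).

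**Figure D3:**
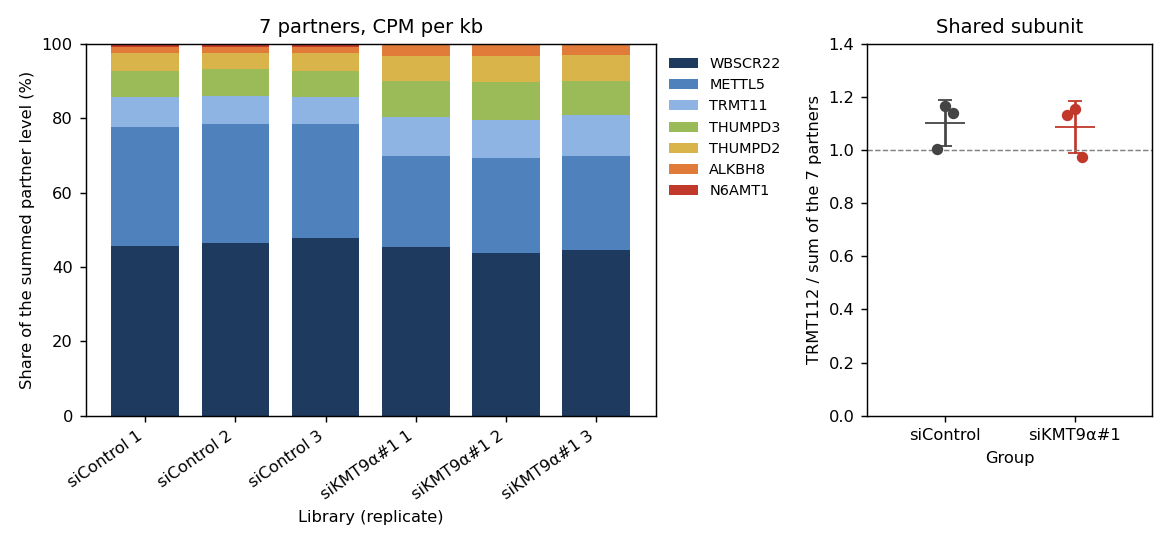
Left, share (%) of each of the 7 partners in their summed level (CPM per kb) in each of the 6 libraries. Right, level of TRMT112 divided by that sum, with points for libraries and the mean and SD per group. WBSCR22 and METTL5 hold 78.1% of the pool with siControl and 69.6% with siKMT9α#1, while the ratio is 1.10 and 1.09.

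The known substrate and neighbouring pathways of these enzymes were examined next. Of 14 genes of translation termination and release, 4 rose and 7 fell (median log2 fold change -0.17). These are 28.6% and 50%, beside 37.1% and 38.5% of all genes tested. ETF1, which encodes eRF1, the release factor that N6AMT1 and TRMT112 methylate, had 371.2, 376.4 and 393.3 CPM with siControl and 495.1, 488.7 and 469.0 CPM with siKMT9α#1. It rose without overlap (log2 fold change 0.35, SE 0.05, adjusted p = 1.62e-06 by edgeR's quasi-likelihood test). GSPT1, which encodes its partner eRF3, fell from 296.5 ± 7.59 to 247.5 ± 2.42 CPM (SD, n = 3), with a log2 fold change of -0.26 (adjusted p = 3.63e-05 by the same test). The largest rises of the list were those of ABCE1, which splits ribosomes after termination (0.74), and MRRF, the mitochondrial ribosome recycling factor (0.64). The largest falls were those of HEMK1, the mitochondrial counterpart of N6AMT1 (-1.08), and GFM2, a mitochondrial recycling GTPase (-1.07).

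Among the other ribosomal RNA methyltransferases, 4 of 16 rose and 9 fell (25% and 56.2%, beside 37.1% and 38.5% of all genes, median -0.13). ZCCHC4, which methylates an adenosine of the large ribosomal subunit's RNA as METTL5 does for the small one, had 12.0004, 10.2 and 9.67 CPM with siControl and 2.99, 4.28 and 4.37 CPM with siKMT9α#1. It fell with a log2 fold change of -1.43 (SE 0.14, adjusted p = 1.8e-08 by edgeR's quasi-likelihood test). EMG1, which methylates a pseudouridine of the small subunit's RNA, fell by 1.25 on the log2 scale. FBL, the methyltransferase of the box C/D particles, rose by 0.64 and METTL17, a mitochondrial ribosome assembly factor, by 0.57.

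The wobble uridine pathway, in which ALKBH8 acts after Elongator, was examined as a list of 14 genes, of which 13 were tested. None rose and 8 fell (median -0.29), which is 61.5% called, beside 75.6% of all genes (37.1% higher and 38.5% lower). Those that fell included CTU1, a tRNA thiolation enzyme (-0.89), DPH3, an electron donor of this and the diphthamide pathway (-0.64), and URM1 (-0.51) and NFS1 (-0.48) of the sulphur relay. Of the 6 Elongator subunits tested, ELP2 (-0.53) and ELP6 (-0.50) fell, and the other 4 did not pass, with log2 fold changes of -0.07 to 0.10. With GC and length offsets 8 genes of the list fell and 3 rose. The other tRNA methyltransferases and their partners gave 7 of 30 higher and 15 lower (23.3% and 50%, median -0.29). They were led by NSUN6 (0.71) and TRMT5 (0.51) on one side and TRMT1L (-1.22) and NSUN3 (-1.13) on the other, each past an adjusted p of 0.05 by edgeR's quasi-likelihood test.

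Among 11 genes of adenosine methylation in mRNA and snRNA, 5 rose and 2 fell (45.5% and 18.2%, beside 37.1% and 38.5% of all genes, median 0.06). KIAA1429, the scaffold of the mRNA writer complex also named VIRMA, rose by 0.69 and RBM15, one of its adaptors, by 0.38. METTL4, an snRNA methyltransferase, fell by 1.25 on the log2 scale, and METTL3, the catalytic subunit of the writer, by 0.15 (adjusted p = 0.0223 by edgeR's quasi-likelihood test). Of 19 other protein methyltransferases with the seven-β-strand fold, to which N6AMT1 belongs, 6 rose and 9 fell (31.6% and 47.4%, median -0.11). METTL12, which acts on citrate synthase, rose by 1.56 from 1.21 CPM, and CAMKMT, which acts on calmodulin, by 1.08. METTL20, which acts on an electron transfer flavoprotein, had a log2 fold change of -2.21 from 3.16 CPM, and METTL18, a histidine methyltransferase, had -1.58. In 5 of the 6 lists some genes rose and others fell past the test. The share called ran from 61.5% to 81.2% of a list, beside 75.6% of all genes tested.

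**Figure D4:**
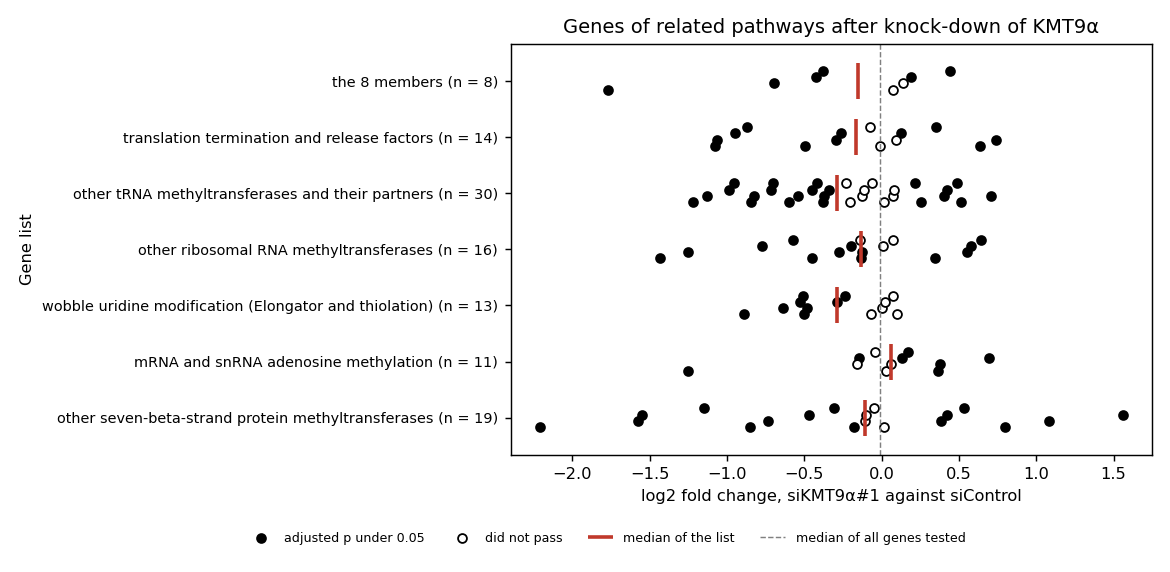
Log2 fold change of each gene tested (siKMT9α#1 against siControl) for the 8 members and 6 lists of related genes, with filled points for an adjusted p under 0.05, red lines for the median of a list and a dashed line for the median of all genes tested (-0.01). The wobble uridine list has 8 filled points below 0 and none above, and the other lists have filled points on both sides.

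Genes whose log2 CPM followed a member most closely over the 6 libraries were named as a description, since the 2 groups of libraries alone produce high correlations. For N6AMT1 they were GAL, ZNF286A and PDHX, each with a Pearson correlation of 1.00 to 2 decimals, and 2865 of 13084 genes lay above 0.95. TRMT112 was followed by SELM (0.999), PAFAH1B3 (0.999) and CADPS2 (0.997), and 529 genes lay above 0.95. SELM and PAFAH1B3 had log2 fold changes of -0.40 and -0.38, and CADPS2 had -1.01 (SE 0.28).

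The libraries held 15551778 to 18568639.5 counts with siControl and 13740097 to 19832395.5 with siKMT9α#1, with 1 transcript per gene. The markers of epithelial cells summed to 3396 to 3734 CPM with siControl and 2411 to 2468 with siKMT9α#1. In this sum 4 of the 6 genes fell (log2 fold changes of -2.76 for EPCAM, -1.28 for KRT8, -0.75 for KRT18 and -0.68 for KRT19) and 2 rose (1.98 for CLDN1 and 1.34 for CDH1). EPCAM and CDH1 were low, with means of 3.86 and 3.39 CPM with siControl, beside 1281 CPM for KRT8. Those high in A549 cells summed to 6205 to 6502 and 5665 to 5825 CPM, and 4 of 7 fell (-2.30 for AKR1C1) and 2 rose (1.75 for ALDH3A1). CDKN2A, which A549 cells have lost, was at 0 counts in every library. All 6 fibroblast genes together had at most 8.66 CPM, the 5 blood and immune genes at most 3.77 (CD3E and HBB at 0) and the 4 endothelial genes at most 1.05 CPM.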

How the data were processed

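RNA-Seq was analysed for 3 siControl and 3 siKMT9α#1 samples of A549 cells. Per the labels and methods, the authors aligned reads with STAR to hg19 and used HOMER to count reads per RefSeq transcript. They compared groups with edgeR. The methods give a version for STAR but none for HOMER or edgeR. The HOMER program used for counting is named, while its options and strand use are not given in the sources used here. The authors deposited estimated counts per transcript, not normalized, of which 36.4% were not whole (steps of 0.5). Their deposited linear fold change (a ratio), p-value and adjusted p-value columns were not used. Of 38767 lines, 1182 without symbol and counts were left out.

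Rounded counts were tested in R 4.3.3 with edgeR 4.0.16 (TMM, filterByExpr, two-sided quasi-likelihood F test, Benjamini-Hochberg adjustment over all 13877 genes tested). The biological coefficient of variation was 4.47%. The fit was tested on simulated data. P-values measure the spread between these replicates, which the labels call biological. Samples of the same group differed by more than sampling noise (chi-square per gene 1.34 to 5.15). Ratios within a library were compared by two-sided exact permutation tests. GC contents (known for 98.8% of genes tested), exons and pseudogenes came from a GRCh37 annotation, and promoters from RefSeq (GRCh38.p14), where N6AMT1 is named HEMK2.

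Correlations of the deviations of samples with the same replicate number were -0.12, 0.04 and -0.11, so that the numbers were not taken as pairs. Alternatives were DESeq2 1.42.0, edgeR's likelihood-ratio and exact tests, other scalings and filters, doubled counts, offsets, a replicate block, every transcript and each sample left out. Python 3.11.15 was used for annotation and figures.

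The members and gene lists were chosen with earlier results of these data known. Named genes are the members, ETF1 and GSPT1, genes overlapping a member, the largest positive and negative changes in each list past an adjusted p of 0.05 with a mean of at least 1 CPM, up to 2 each way, and the 3 genes most correlated with TRMT112 and N6AMT1. The genes ELP2, ELP6, URM1, NFS1 and the named epithelial and A549 markers fall outside this rule and were named after their values were seen.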

Additional observations from a re-analysis of the deposited data

How the results depend on the processing

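N6AMT1, TRMT112, WBSCR22, METTL5 and ALKBH8 kept their direction and their adjusted p under 0.05 in all 20 edgeR and DESeq2 alternatives. TRMT11 passed in 7 of 20, with RLE factors (0.15), doubled counts (0.15), length offsets (0.31), GC and length offsets (0.34), these offsets with the replicate block (0.35) and every transcript (0.14), and without siControl replicate 1 (0.20). When each library was left out in turn, TRMT11 ranged from 0.11 to 0.20 and THUMPD2 from 0.15 to 0.24. THUMPD2 lost its call with the library size alone (0.084) and upper quartile factors (0.13), and THUMPD3 turned to -0.034 with the library size alone. Between 5 and 7 members were called in every setting.

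The log2 difference in the ratio of TRMT112 to its partners ranged from -0.087 to 0.056 when each library was left out, and turned positive without siControl replicate 2 (0.02), siControl replicate 3 (0.01) or siKMT9α#1 replicate 3 (0.056). The sums without WBSCR22 or METTL5 and with coding transcripts only were added after the data were seen.

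Over all genes, 3357 passed the study's threshold, against 5962 with the likelihood-ratio test, 5924 with the exact test, 6070 without a filter on low counts and 5861 with the replicate block and offsets, and 2326 to 4085 with 1 library left out. The study names edgeR but not which of its tests. It reported more differentially expressed genes than any of these settings gave. The counts given here take 1 transcript per gene symbol, and whether the study counted genes in this way is not stated. The replicate block alone gave 10229 genes with an adjusted p under 0.05, beside 10492 without it, and 6 members as before. With the library size alone the median log2 fold change was -0.12 and 1516 genes were higher and 1862 lower at the study's threshold, against 1878 and 1479 with TMM. The cause was not tested. The lowest count of a member in a library was 38, for N6AMT1 after its knock-down.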
